A study of Homo sapiens with 16 samples.

Results

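The zinc finger genes of chromosome 19 were followed in L1236, a cell line grown from a human Hodgkin lymphoma. Members were the gene-level probe sets whose only symbol is ZNF followed by a number and whose gene lies on chromosome 19. The platform annotation table used here gives no chromosome, so each gene was placed by looking up the annotation's gene identifier in RefSeq. The rule found 227 of 33297 probe sets, which stand for 221 genes, 73 on the short arm (19p) and 148 on the long arm (19q). All symbols of the members were the same in RefSeq, and 33 further probe sets that name a ZNF-number gene together with another gene were left out. No cytogenetic bands were given. The arms were therefore split at the widest gap between protein-coding genes, and the arms were divided into 24 stretches of neighbouring members with at most 5 other protein-coding genes between them.

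The cells carried a retrovirus with a short hairpin RNA aimed at RELB, a transcription factor of the non-canonical branch of NF-kB signalling. In the 4 uninduced arrays the infected cells were left without doxycycline, and in the 4 induced arrays doxycycline was added to switch the hairpin on, so both groups share the infection and the cell line. Each group holds 1 array for every combination of a code B_1 or B_4 and a closing number 1 or 4 in the titles, which makes 4 pairs of arrays alike in both; what code and number stand for is not explained in the labels, and nothing shows that a pair shares its origin. The same 8 arrays were also summarised at exon level, so the 16 samples are 8 arrays. Whether the 4 arrays of a group are separate cultures is not stated in the labels; the p-values therefore describe the spread between arrays, and that spread may be technical. Values are log2 signals, on which a difference of 1 is a factor of 2.

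C2H2 zinc finger proteins bind DNA through tandem fingers, each held together by a zinc ion. Many of those encoded on chromosome 19 carry a KRAB domain, which recruits TRIM28 and through it the histone methyltransferase SETDB1, HP1 proteins and the NuRD complex to silence chromatin. The genes arose by tandem duplication and stand in clusters of close relatives, and several are known for silencing retroelements. Probes of such relatives can share RNA, so the assignment of a signal to a single member is uncertain throughout.

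RELB itself, which also lies on 19q, did not pass the test. Its log2 signal was 7.23, 7.38, 7.54 and 7.45 in uninduced replicates 1 to 4 and 7.22, 7.26, 7.39 and 7.14 in induced replicates 1 to 4. The groups overlapped, the induced array was the lower in 4 of 4 pairs, and the difference was -0.15 ± 0.09 (SE, n = 4 per group; limma adjusted p = 0.212). Directions below thus rest on the labels, and the groups are the arrays labelled uninduced and induced. Of the fixed markers, all 12 of Hodgkin cells were measured and passed the signal filter, led by IRF4 (mean 11.3) and TNFRSF8, which encodes CD30 (9.24), although TNFRSF8 stood at 6.89 in the uninduced and 11.6 in the induced group. Summed log2 signals of the 12 Hodgkin markers ran from 96.5 to 97.0 in uninduced and from 88.5 to 91.1 in induced arrays, with 4 markers higher and 6 lower. Those of 10 B-cell markers ran from 66.1 to 67.4 and from 74.6 to 78.6, with 4 higher and 2 lower, and PAX5 (10.4) and CD79A (8.38) were brightest. The T-cell sums of 10 genes (45.5 to 46.9 against 45.9 to 48.1) and the myeloid sums of 8 (36.7 to 38.7 against 37.6 to 39.2) overlapped between the groups. LCK (5.80) and CD247 (5.46) led the T-cell list, and TYROBP (6.0) and CD68 (5.66) the myeloid list. The 7 fibroblast genes summed to 37.6 to 38.6 and to 33.0 to 33.8, with 1 higher (PDGFRB, 0.59), 1 lower and DCN and LUM below 3.4. COL1A1 (6.71) and FAP (5.92) led the list. FAP alone was lower, from 8.56 to 3.29, and the 3 collagen genes did not pass. Whether the shifts of Hodgkin and B-cell markers and of FAP had a part in the zinc finger differences was not tested. In such bulk RNA, fewer cells of a kind and less RNA per cell cannot be told apart.

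Among the zinc finger genes of chromosome 19, the arrays labelled induced differed from the arrays labelled uninduced in both directions, with many large differences and a split between the arms. Of the 221 genes, 143 passed a signal filter set on the mean over all 8 arrays and were tested with limma, and 78 were too dim. Of the 143, 40 were higher and 57 lower in the induced arrays at an adjusted p under 0.05, beside 27.1% higher and 28.3% lower of all 13813 tested genes. On 19p, 17 of 50 tested genes were higher and 8 lower. On 19q, 23 of 93 were higher and 49 lower.

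A filter on the mean can keep a gene only for the group in which it is bright, so all 221 genes were also fitted with no filter. That fit called 50 members higher and 61 lower, 22.6% and 27.6%, beside 21.7% and 22.9% of all 18417 genes, or 50.2% called in all beside 44.6%. The shares of all members were thus close to the background, and their median difference was -0.0090 against 0.03 for all genes. The contrast between the arms was present without the filter: 23 of 73 genes on 19p were higher and 10 lower, and 27 of 148 on 19q were higher and 51 lower. Other genes of the chromosome showed a split of the same direction, with 84 of 452 tested genes higher and 94 lower on 19p and 48 of 480 higher and 143 lower on 19q. The arms were compared by counts only, and no test of the difference between them was made.

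Of the 78 members under the filter, the fit without it called 11 higher and 5 lower, and 62 did not pass. The largest of these were the rises of ZNF443 (1.81), ZNF426 (1.54), ZNF345 (1.35) and ZNF823 (1.08) and the falls of ZNF816 (-1.21) and ZNF468 (-1.13), all from dim signals.

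Many differences were large. Called differences of at least 2-fold were seen in 18 higher and 30 lower members, 33.6% of those tested. The background for such calls was 16.5% of all tested genes, made up of 6.89% higher and 9.62% lower. It was 16.9% among the 7347 genes whose mean signal lay between the 10th and 90th percentiles of the tested members, 7.51% among 932 other genes of chromosome 19 and 10.4% among 183 ZNF-number genes of other chromosomes. With no filter the share was 24.4% of all members against 13% of all genes. The median absolute difference was 0.52 for tested members, 0.72 on 19q and 0.27 on 19p, against 0.30 for all tested genes. With no filter these medians were 0.28 for all members, 0.31 on 19q and 0.24 on 19p, against 0.21 for all genes. Values of the groups did not overlap for 92 tested members, 64.3%, where the background was 49.8%, and for 110 of all 221 members, where it was 41.1%. Of the 97 called members, 91 moved the same way in all 4 pairs, beside 7413 of the 7663 called genes among all tested genes. Calls and pair directions come from the same values, so this count is a description only.

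**Figure D1:**
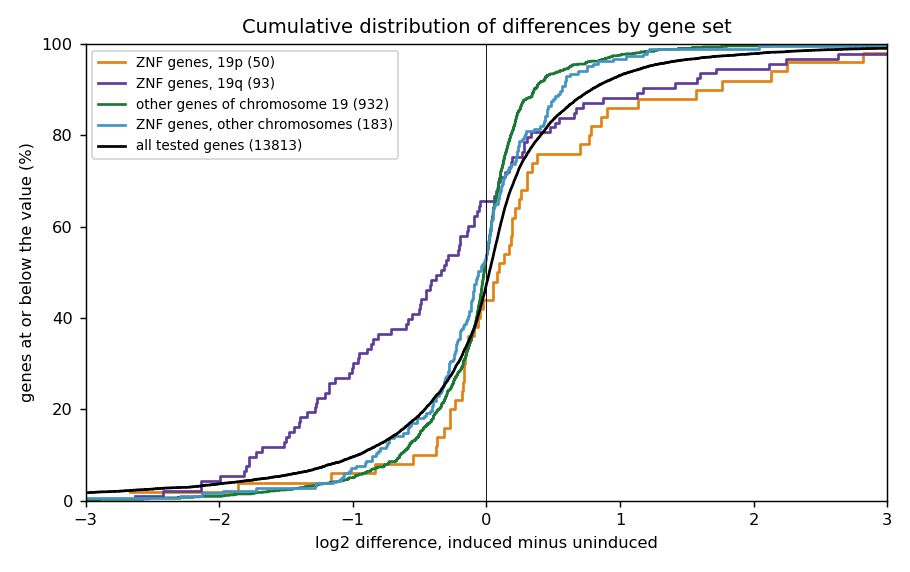
The cumulative share of genes (y axis, percent) is plotted against the log2 difference, induced minus uninduced (x axis), for tested ZNF genes of 19p and 19q, other genes of chromosome 19, ZNF genes of other chromosomes and all tested genes. The 19q curve lies to the left of the others between -1 and 0, with a median of -0.34 (-0.073 over all 19q members with no filter), and the 19p median is 0.09 (0.10). The axis ends at 3 on both sides, beyond which few members lie.

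The largest rise was that of ZNF737, on 19p. Its log2 signal was 5.82, 6.05, 5.77 and 5.99 in uninduced replicates 1 to 4 and 9.92, 10.25, 9.61 and 10.18 in the induced ones. All induced arrays thus stood more than 3 log2 units above all uninduced ones, and the difference of 4.08 ± 0.09 (SE; adjusted p = 6.42e-11) corresponds to a 16.9-fold higher level. The next member along the chromosome, ZNF626, read 8.12, 8.06, 7.74 and 7.69 against 10.11, 10.34, 9.81 and 10.36, a difference of 2.25 ± 0.11. Here too the groups were well apart. A second, dimmer probe set of ZNF626, not used in the fit, moved further, by 3.30, so the size of its rise depends on the probes.

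On 19q, ZNF83 showed the next largest rise. It read 3.41, 3.11, 3.46 and 3.45 in uninduced replicates 1 to 4 and 7.44, 7.18, 7.04 and 7.44 in the induced ones, a difference of 3.92 ± 0.12 (adjusted p = 8.22e-10). Its uninduced values lay near the bottom of the range, under the filter's mean of 4.77, where part of the signal is array background, so the true difference may be larger and no fold is given. ZNF302 rose from 3.95, 4.02, 3.94 and 3.94 to 7.55, 7.0, 7.58 and 7.49 (3.44 ± 0.12), also from a dim and tight uninduced group. ZNF875, further along the same arm, went from 4.03, 4.49, 4.42 and 4.55 to 7.03, 6.77, 7.05 and 7.14 (2.63 ± 0.11).

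The other rises among the 12 largest were ZNF506 (2.82 ± 0.14), ZNF649 (2.24 ± 0.11), ZNF799 (2.13 ± 0.17), ZNF611 (2.12 ± 0.08), ZNF682 (1.76 ± 0.10), ZNF790 (1.72 ± 0.11) and ZNF577 (1.6 ± 0.09), each with an adjusted p of 1.63e-06 or lower. These genes moved from uninduced means between 4.17 and 5.01 to induced means between 5.97 and 7.73. For ZNF799 the size is uncertain, since its only exon-level probe set differed by 0.43 and was not called.

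The largest fall was that of ZNF43, which shares a stretch of 19p with ZNF737. It read 6.44, 6.23, 6.42 and 6.08 in uninduced replicates 1 to 4 and 3.89, 3.5, 3.73 and 3.38 in the induced ones, a difference of -2.67 ± 0.08 (adjusted p = 5.34e-10). The induced values are near the bottom of the signal range, so no fold is given. ZNF382 fell from 7.0, 6.86, 6.46 and 6.24 to 4.29, 3.68, 4.11 and 3.95 (-2.63 ± 0.14). In ZNF382 both uninduced arrays of B_1 were above both of B_4, and all of them were above every induced array.

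Further falls on 19q began from brighter signals. ZNF227 fell from 7.48, 7.48, 7.33 and 7.29 to 5.05, 5.2, 4.88 and 4.78 (-2.42 ± 0.08). ZNF587 fell from 8.84, 8.75, 8.69 and 8.62 to 6.54, 6.49, 6.69 and 6.62 (-2.14 ± 0.09), and ZNF671 from 7.46, 7.62, 7.5 and 7.52 to 5.23, 5.66, 5.67 and 5.56 (-2.0 ± 0.10). In each of these 3 genes the arrays of a group lay within 0.5 log2 units of each other. The other falls among the 12 largest were ZNF320 (-2.13 ± 0.15), ZNF14 (-1.86 ± 0.12), ZNF480 (-1.81 ± 0.09), ZNF776 (-1.80 ± 0.11), ZNF584 (-1.78 ± 0.08), ZNF552 (-1.78 ± 0.11) and ZNF211 (-1.73 ± 0.15), with adjusted p of 2.46e-06 or lower. Of these 12, only ZNF43 and ZNF14 lie on 19p.

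**Figure D2:**
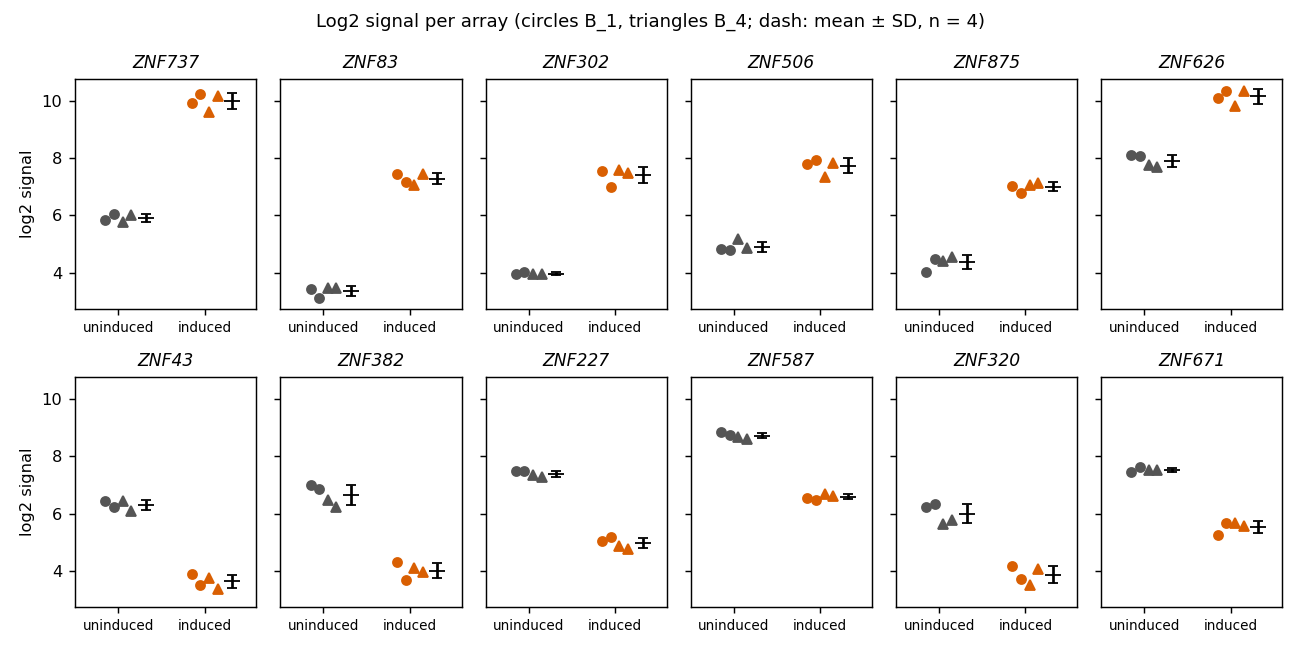
Log2 signal (y axis) of the 6 largest rises (top) and 6 largest falls (bottom) in each array labelled uninduced or induced, with circles for B_1, triangles for B_4 and a dash with bars for the mean ± SD (n = 4). The 4 arrays of a group do not overlap the 4 of the other in any of the 12 genes. These genes were picked for the largest differences, so the lack of overlap follows from the choice and is no further support. Among all tested genes, 49.8% did not overlap.

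Ordered by position, neighbouring members tended to have differences of the same sign. Of 121 adjacent pairs of tested members in the same stretch, 84 (69.4%) had the same sign, against 51.5% of 930 adjacent pairs of other tested genes of chromosome 19 and 59.2% of 13772 adjacent pairs over all chromosomes. With no filter it was 130 of 197 pairs (66.0%) for the members and 52.7% for the other genes of chromosome 19. Where both neighbours were called, 50 of 66 member pairs agreed in direction (75.8%), against 63.4% for the other genes of chromosome 19 and 69.7% over all genes. These are descriptions without a test, and neighbours can share probes' targets and overlapping transcripts.

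**Figure D3:**
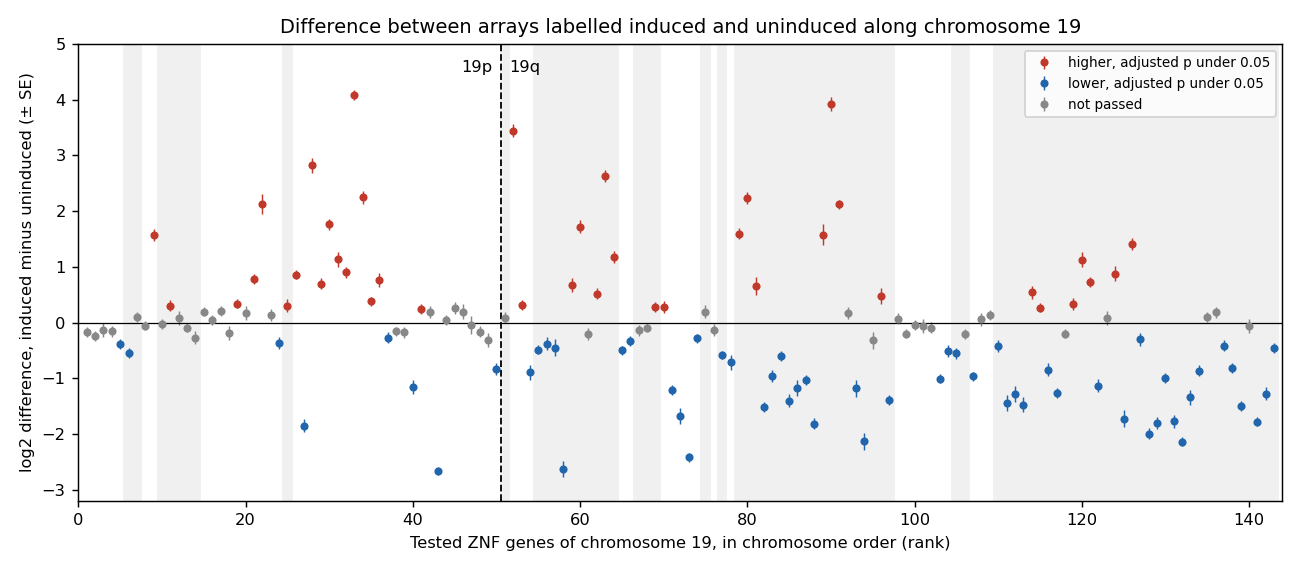
The log2 difference, induced minus uninduced, with its SE (y axis) is plotted for the 143 tested members in chromosome order (x axis, rank), coloured by call; shading alternates between stretches and the dashed line separates 19p from 19q. The run of 9 rises stands in the later part of 19p, and at the right end of 19q falls outnumber rises.

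The first 6 stretches of 19p, which lie in band 19p13 by general knowledge of the chromosome, held few calls among their tested genes. Of their 25 tested genes 6 were higher and 3 lower, 36.0% called against 55.5% of all tested genes, with a median of 0.05. With no filter, 23 genes of 19p were higher and 10 lower, of which 13 and 6 lay in the stretch from ZNF101 to ZNF254. The others lay among the 40 genes of these first stretches. That fit also called ZNF443, ZNF426, ZNF823 and ZNF441 higher there and ZNF846 lower, all under the filter. ZNF799 rose in the stretch from ZNF653 to ZNF791, where 3 of 10 tested genes were higher and 1 lower. There, 19 of 21 genes (90.5%) had a positive difference without the filter, beside 54.9% of all genes. In that fit 6 of the 21 were called higher and 1 lower, 33.3% beside 44.6% of all genes. In the stretch from ZNF554 to ZNF77, all 5 genes had differences below 0, from -0.13 to -0.38, of which only that of ZNF77 passed (-0.38 ± 0.09, adjusted p = 0.00433). In the stretch from ZNF317 to ZNF846 the only call was ZNF266 (0.30 ± 0.10, adjusted p = 0.0189), and it was lost without uninduced replicate 1 or 4 or induced replicate 4 (adjusted p from 0.0620 to 0.0903).

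The stretch from ZNF101 to ZNF254, most of it in band 19p12, held 11 of the 17 rises of 19p and 5 of its 8 falls among 25 tested genes. These were 44% and 20%, beside 27.1% and 28.3% of all tested genes. With no filter 13 of 33 genes were higher and 6 lower, 39.4% and 18.2% beside 21.7% and 22.9% of all genes. Inside the stretch, 9 tested neighbours in a row, from ZNF506 to ZNF430, were all higher, with a median of 1.13. This run was picked after its values were seen. Its members ZNF682, ZNF90 and ZNF486 had uninduced means of 4.27, 4.42 and 4.65, under the filter's 4.77, and passed it through the induced arrays. The untested member within the run is ZNF93, known for silencing LINE-1 elements, which read 4.34, 3.75, 3.90 and 3.85 in uninduced and 4.73, 4.69, 4.43 and 4.86 in induced replicates 1 to 4. ZNF93 was called higher when no filter was applied (0.72 ± 0.14, adjusted p = 0.00123). Of the 14 tested members beyond the run, 4 were lower, ZNF714, ZNF738 (-1.16 ± 0.13), ZNF43 and ZNF254, 1 was higher, ZNF493 (0.25 ± 0.09, adjusted p = 0.0323), and 9 did not pass. ZNF91, known for silencing SVA elements, was not called (-0.05 ± 0.16, adjusted p = 0.828).

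The promoters of ZNF737 and ZNF626, from the run, and of ZNF43 are printed because close relatives moved in opposite directions. Each line gives the 250 bases before the annotated start in RefSeq, build GRCh38.p14, read 5′ to 3′ on the gene's strand, with capitals where GGG, any 5 bases and CC follow each other on either strand, overlaps included, a loose form of the letters NF-kB recognises. ZNF737 and ZNF626 rose, and ZNF43 fell. Their windows lie on the minus strand, at chr19:20565782-20566031, chr19:20661572-20661821 and chr19:21836183-21836432.
ZNF737: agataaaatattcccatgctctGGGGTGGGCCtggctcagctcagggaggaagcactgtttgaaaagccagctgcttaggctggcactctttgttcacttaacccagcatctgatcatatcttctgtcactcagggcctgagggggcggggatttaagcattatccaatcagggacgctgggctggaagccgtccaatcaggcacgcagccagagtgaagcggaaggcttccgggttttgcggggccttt
ZNF626: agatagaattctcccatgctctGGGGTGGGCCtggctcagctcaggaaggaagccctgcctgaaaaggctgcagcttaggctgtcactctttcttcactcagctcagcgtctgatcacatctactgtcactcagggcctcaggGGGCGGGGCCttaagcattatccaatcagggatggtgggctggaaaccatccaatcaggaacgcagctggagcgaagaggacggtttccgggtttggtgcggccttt
ZNF43: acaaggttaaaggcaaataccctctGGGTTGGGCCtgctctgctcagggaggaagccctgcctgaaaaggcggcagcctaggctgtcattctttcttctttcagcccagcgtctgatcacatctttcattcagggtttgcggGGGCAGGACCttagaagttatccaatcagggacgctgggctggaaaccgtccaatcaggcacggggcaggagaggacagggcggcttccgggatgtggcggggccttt
In a global alignment, ZNF737 and ZNF626 were 86.0% identical, ZNF626 and ZNF43 78.3%, and ZNF737 and ZNF43 75.6%. The median over the 351 pairs of 27 promoters of this stretch was 75.6%, with a range from 35.8% to 92.0%. The windows of ZNF714 and ZNF431, the most alike, belong to a gene that fell (-0.27) and one that did not pass (-0.15). ZNF486 and ZNF626, at 91.2%, both rose, by 0.90 and 2.25.

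On 19q, the stretch from ZNF577 to ZNF331 held blocks of either direction and a mixed end. Of its 19 tested genes 7 were higher (36.8%) and 10 lower (52.6%), beside 27.1% and 28.3% of all tested genes. Called differences of at least 2-fold were seen in 13 of the 19 (68.4%), beside 16.5% of all tested genes. Its first 3 tested genes, ZNF577, ZNF649 and ZNF613, rose. The next 7, from ZNF615 to ZNF480, all fell, with a median of -1.17. Then came the rises of ZNF808 (1.58 ± 0.19), ZNF83 and ZNF611. The rest was mixed, with falls of ZNF28 (-1.18), ZNF320 and ZNF331 (-1.39), a rise of ZNF761 (0.48 ± 0.15, adjusted p = 0.0176), and ZNF600 and ZNF160 not passing. These blocks were delimited after the values were seen. With no filter, 8 of 35 genes were higher (22.9%) and 12 lower (34.3%), beside 21.7% and 22.9% of all genes. Called differences of at least 2-fold made up 42.9% of the 35 in that fit, beside 13% of all genes.

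The stretch at the end of 19q, from ZNF264 to ZNF446, carried the largest number of falls. Of its 34 tested genes, the most of any stretch, 22 were lower (64.7%) and 7 higher (20.6%), with a median of -0.83. The shares of all tested genes were 28.3% lower and 27.1% higher. With no filter 21 of 38 were lower (55.3%) and 8 higher (21.1%), with a median of -0.44. The shares of all genes in that fit were 22.9% and 21.7%. A run of 8 consecutive members, from ZNF154 to ZNF417, was lower throughout, with a median of -1.56: ZNF154, ZNF671, ZNF776, ZNF586, ZNF552, ZNF587, ZNF814 and ZNF417. ZNF154 was the weakest of them (-0.30 ± 0.12, adjusted p = 0.0481). ZNF274, a KRAB protein known to bind the 3' ends of other zinc finger genes and to recruit SETDB1, fell slightly (-0.41 ± 0.10, adjusted p = 0.00578). ZNF551 (1.41 ± 0.11), ZNF549 (1.13) and ZNF134 (0.88 ± 0.13, adjusted p = 0.000167) were higher within the same stretch. Of the 6 other tested genes inside it, such as ZSCAN18 and A1BG, 2 were lower and the rest did not pass, with a median of -0.09.

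Promoters of the end of 19q were less alike than those of the stretch from ZNF101, with a median identity of 43.2% over 595 pairs. Those of ZNF671 (minus strand, chr19:57727625-57727874) and ZNF587 (plus strand, chr19:57849609-57849858), both from the run of falls, are shown for comparison, with the same capitals.
ZNF671: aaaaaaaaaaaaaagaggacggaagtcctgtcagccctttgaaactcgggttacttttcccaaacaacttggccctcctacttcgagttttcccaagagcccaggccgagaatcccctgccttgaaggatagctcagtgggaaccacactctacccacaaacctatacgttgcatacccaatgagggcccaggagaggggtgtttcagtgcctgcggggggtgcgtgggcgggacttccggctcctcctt
ZNF587: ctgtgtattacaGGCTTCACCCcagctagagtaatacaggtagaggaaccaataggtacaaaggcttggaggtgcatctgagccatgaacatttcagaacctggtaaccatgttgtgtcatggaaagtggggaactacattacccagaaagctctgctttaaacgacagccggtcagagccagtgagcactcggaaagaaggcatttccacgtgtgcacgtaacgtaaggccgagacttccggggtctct
RefSeq promoters matched 195 of the 221 genes. The same letters occurred in 138 of them (70.8%), against 53.7% of the promoters of all 27305 genes in the table. It was found in 67.6% of higher, 74.0% of lower and 72.7% of not passing members, so its share differed little by call. The windows of members held a median of 16 CpG dinucleotides and all windows 11. A match is a description of the letters and not a binding site.

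**Figure D4:**
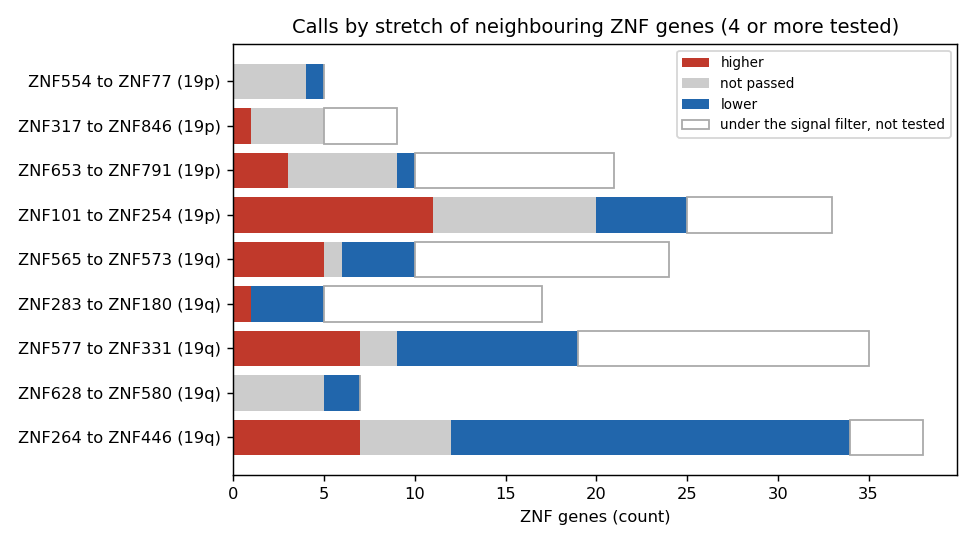
Count of ZNF genes (x axis) that were higher, not passing, lower or under the signal filter in each stretch with at least 4 tested members (y axis, in chromosome order from the top). Falls outnumber rises in the stretches from ZNF577 and from ZNF264, and rises outnumber falls in that from ZNF101.

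The remaining stretches of 19q were smaller. In the stretch from ZNF565 to ZNF573, 5 of 10 tested genes were higher, among them ZNF875 and ZNF790, and 4 lower, among them ZNF382. With no filter 8 of its 24 genes were higher and 4 lower, 50% called beside 44.6% of all genes. In that from ZNF283 to ZNF180, 4 of 5 tested genes fell: ZNF227, ZNF226 (-1.68 ± 0.14), ZNF224 (-1.21 ± 0.09), a repressor of the aldolase A gene, and ZNF180 (-0.29). The other tested gene, ZNF45, was higher (0.28 ± 0.11, adjusted p = 0.0475). Of all tested genes 28.3% were lower and 27.1% higher. Of the 17 genes in the stretch 12 were too dim to test. With no filter 4 of 17 were lower (23.5%, beside 22.9% of all genes) and 0 higher. The stretch from ZNF628 to ZNF580 had 2 falls and 5 genes that did not pass, with ZNF581 the largest (-1.01 ± 0.09). ZNF473, which takes part in the processing of histone mRNA and stands alone, fell by 0.58 on the log2 scale (7.36, 7.16, 7.26 and 7.13 against 6.86, 6.58, 6.68 and 6.45).

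The brightest probe sets of tested members were those of ZNF257 (mean 10.3), ZNF460 (9.49) and ZNF626 (9.03), and the dimmest those of ZNF134 (4.78), ZNF14 (4.78) and ZNF726 (4.79). Signals of different probe sets are not levels that can be set against each other. ZNF257 shows this within a gene, since its other probe set read from 3.24 to 4.59 over the 8 arrays. ZNF257 (0.26 ± 0.11, adjusted p = 0.0688) and ZNF726 (-0.32 ± 0.13, adjusted p = 0.0574) did not pass. ZNF726 passed without uninduced replicate 1 (adjusted p = 0.0177) or induced replicate 1 (adjusted p = 0.00193), with quantile normalisation (0.0435) and with exon-level means (0.0205). ZNF257 passed with the mean of its probe sets (0.00993) and with robust fitting (0.0438). The directions were the same.

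The exon-level summary of the same arrays, which is no replicate, held 1208 probe sets for 210 members, and 755 of these passed its filter. Limma called 106 of them higher and 176 lower, 14% and 23.3%, where the background was 17.9% and 17.5% of 168240 probe sets. For all 94 called members with exon-level probe sets, the mean exon-level difference had the sign of the gene-level one. Both levels summarise the same arrays, so this agreement is not independent support. Over tested members the 2 levels correlated at 0.96, but sizes could differ. Exon-level means were 0.43 for ZNF799, 0.04 for ZNF761 and -0.10 for ZNF583. At gene level these members differed by 2.13, 0.48 and -0.96. Within ZNF587, 10 of 10 exon-level probe sets were called lower, from -1.35 to -3.10. In ZNF83, 9 of 9 tested probe sets were called higher, and in ZNF43, 3 of 3 were called lower. The exon-level value of ZNF737 is a single probe set with the same difference as at gene level, and adds nothing to it. The same holds for ZNF805 and ZNF749. Of ZNF227, 6 probe sets were called lower and 1 higher (0.97). ZNF331 and ZNF274 likewise had probe sets called in both directions.

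The induction difference was fitted within each B code, whose arrays share no controls. In B_1, 34 tested members were higher and 55 lower, where the background was 23.2% higher and 25.4% lower. In B_4, 36 were higher and 52 lower, against 22.6% and 23.7%. Both codes called 75 members in the same direction (52.4%, background 39.2%) and 0 in opposite directions. The 2 sets of differences had the same sign in 127 of 143 members (88.8%, against 82.1% of all tested genes), and their correlation over the 143 members was 0.97, as a description. None of the 16 members with opposite signs was called by the joint fit, and their differences stayed within 0.46 in B_1 and 0.43 in B_4. The joint difference is the mean of those within the codes, so opposite signs cancel in it. The absence of joint calls among these members is therefore no support for agreement of the codes. On 19q the median difference was -0.37 in B_1 and -0.27 in B_4, and on 19p 0.00 and 0.12.

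Limma called 0 members for the interaction of induction label and B code, and 20 members had an unadjusted p under 0.05 (14%); the background was 0.297% of all tested genes called and 11.9% at the unadjusted threshold. The members with the lowest p were ZNF430, ZNF460, ZNF226 and ZNF136. ZNF430 differed by 1.07 in B_1 and 0.46 in B_4 (adjusted p of the interaction 0.150). ZNF460 differed by -1.65 and -0.92 (0.170). ZNF226 differed by -2.02 and -1.34 (0.173), and ZNF136 by 0.46 and -0.13 (0.207). A variance trend with robust fitting called the interaction of ZNF460 (adjusted p = 0.0495). In these genes the induced-minus-uninduced difference was larger in B_1, and no such difference between the codes passed the main test. In simulated data the interaction test recovered 5% of added differences of 0.5 log2 units and 72% of those of 1. The absence of calls therefore does not show that the codes are alike.

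Between B codes as such, limma called 0 members (0% of all tested genes), and 28 had an unadjusted p under 0.05 (19.6%, background 13.8%). B_4 was above B_1 for 46 of 143 members, and the median difference was -0.07 against 0.01 for all tested genes. ZNF615 (-0.46 ± 0.09, adjusted p = 0.197), ZNF583 (-0.39 ± 0.08, adjusted p = 0.206), ZNF600 (-0.47 ± 0.11, adjusted p = 0.222) and ZNF627 (-0.34 ± 0.09, adjusted p = 0.245) had the lowest p. Each was lower in B_4. Without induced replicate 4 the test called 1 member, ZNF91 (-0.77, adjusted p = 0.0262; -0.55 and 0.246 with all arrays).

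**Figure D5:**
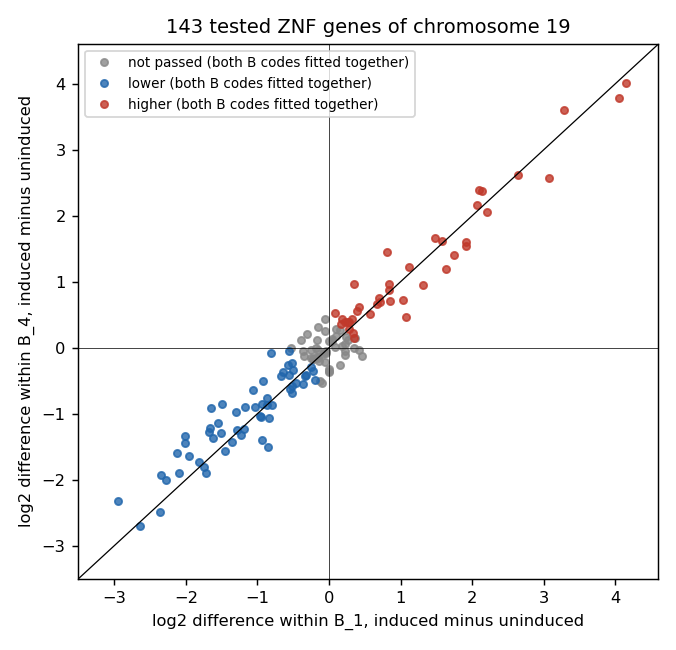
Log2 difference, induced minus uninduced, within B_4 (y axis) against that within B_1 (x axis) for the 143 tested members, coloured by the call of the joint fit, with the line of equality. Points follow the line. The 16 members with opposite signs are all among those that did not pass, since opposite signs cancel in the joint difference.

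Genes of the silencing machinery that KRAB proteins recruit also moved in both directions. Of 43 measured genes of the list, 42 were tested, of which 15 were higher, 11 lower and 16 did not pass, 35.7% and 26.2% beside 27.1% and 28.3% of all tested genes. TRIM28, the KRAB corepressor, fell (10.62 to 9.79, -0.83 ± 0.09, adjusted p = 1.92e-05). SETDB1, the histone methyltransferase that TRIM28 recruits, was higher (0.36 ± 0.10, adjusted p = 0.0116), a call lost without uninduced replicate 4 (adjusted p = 0.0503). The HP1 protein gene CBX5 did not pass (0.21 ± 0.09, adjusted p = 0.0536) but did in 4 of 19 alternatives, with adjusted p from 0.0247 to 0.0411, among them without induced replicate 3 (0.0253). The maintenance DNA methyltransferase DNMT1 rose (0.55 ± 0.10, adjusted p = 0.000589).

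Changes of the other named cofactors were near 1 log2 unit. MORC3, a chromatin-associated ATPase, rose by 1.01 ± 0.08. The de novo DNA methyltransferase DNMT3B (-0.94 ± 0.09), the histone methyltransferase EHMT2 (-0.92 ± 0.08) and the SUMO protease SENP1 (-0.79 ± 0.08) fell. Their adjusted p-values did not exceed 8.28e-06. Called differences of at least 2-fold were seen in 1 gene of this list (2.38%), beside 16.5% of all tested genes. Among the tested zinc finger genes they were 48 of 143 (33.6%), and with no filter 24.4% of all members. The sets also differ in signal, with a median of 8.67 for the list and 6.33 for the tested zinc finger genes.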

How the data were processed

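RNA of 8 arrays of L1236 cells was measured on Affymetrix whole-transcript arrays. The deposited values are log2 signals; the submitters' processing notes list RMA and Partek with no version. Base 2 was inferred from RMA's usual output and the range (2.07 to 14.1). The sources used here do not give the build, the annotation version or any filter applied upstream. RMA equalises arrays, so a global shift would be removed, and dim signals are compressed. The 4428 features that both summaries hold were all identical at tolerance 0, so the exon level was never used as replicates.

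Of 33297 probe sets, 19460 had 1 symbol, 1754 several and 12083 none. Symbols were updated through gene identifiers of RefSeq (GRCh38.p14). The probe set with the highest mean stood for each of 18417 genes, and genes under the 25th percentile of mean signal (4.77) were left out. Limma 3.58.1 in R 4.3.3 fitted the induction label with B code and closing number as covariates, or the 4 cells of B code and label plus closing number, over 13813 genes, with Benjamini-Hochberg adjustment and a threshold of 0.05; all adjusted p come from it (4 residual and 6.27 prior degrees of freedom in the first design). The median of all genes was within 0.1 of 0 under every scaling. The fitting code was checked first against data of known answer. Figures used matplotlib 3.10.9 in Python 3.11.15. Named were RELB, the 12 largest rises and falls moving alike in 4 pairs (arrays alike in code and number), the largest change of each stretch, the 4 lowest p for both B code tests, the 3 brightest and dimmest, members whose probe sets disagree by over 1 log2 unit (ZNF626), and from the lists fixed genes, the 4 lowest p or the 2 brightest markers. Other genes were named after their values were seen. Members and lists were chosen with earlier results of these data known. Protein features were not analysed here. The number of arrays limits the precision. Alternatives were no filter, a filter at the median, quantile normalisation, median centring, other handling of several probe sets, a robust variance trend, exon-level means, no covariates, the replicate block, a threshold of 0.01 and leaving out each array.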

Additional observations from a re-analysis of the deposited data

Results flagged for a closer look

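In 5 of the 94 sets of 4 arrays checked for the named genes, 1 array stood far from the other 3 of its group by Dixon's criterion (gap over range), which chance alone reaches in about 1 in 20 sets. Uninduced replicate 2 read 3.11 for ZNF83, where the others read 3.41 to 3.46. Induced replicate 2 read 7.0 for ZNF302 against 7.49 to 7.58. Uninduced replicate 1 read 4.84 for ZNF577 against 4.74 to 4.75. Uninduced replicate 2 read 9.87 for ZNF257 against 10.24 to 10.25, and induced replicate 1 read 5.03 for ZNF726 against 4.47 to 4.55. In ZNF83, ZNF302 and ZNF577 the array lay far from the other group all the same.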

How the results depend on the processing

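Of the 736 alternative values of the named induction differences, 720 kept the direction and the side of the threshold, 6 lost a call, 10 gained one and 0 reversed. Many of the named genes were picked for large differences or low p in these same data. The count is therefore no measure of how stable the other members are. The median filter, which leaves 77 members, gave 14 higher members, 10 of them on 19p and 4 on 19q, and 31 lower on 19q, with 50 and 45 called in B_1 and B_4; fewer genes were tested. Higher genes were 26.9% of the called members under it, 41.2% under the filter used and 45.0% with no filter. The members' median was -0.24 with the median filter, -0.0090 with no filter and -0.089 with exon-level means; the cause of the last was not tested. Quantile normalisation called 17 KRAB cofactor genes lower, and robust fitting called 1 interaction with B code; the cause was not tested. Leaving out 1 array at a time gave 34 to 37 higher and 53 to 59 lower members, 14 to 17 higher and 6 to 9 lower on 19p, 18 to 22 and 46 to 50 on 19q, 75 to 91 called in B_1, 74 to 94 in B_4, 0 to 0 interactions, 0 to 1 calls between B codes, 13 to 15 higher and 11 to 13 lower cofactor genes, and medians from -0.17 to -0.10. With the replicate block, 37 members were higher and 56 lower. Arrays alike in code and number are called pairs as a description; they were not taken to share an origin, because the deviations of same-numbered arrays correlated at 0.16, -0.02, 0.11 and 0.02. No array carried a detection call, so how far dim signals lie above background is unknown.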
